A study of Mus musculus with 16 samples.

Results

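The tissue inhibitors of metalloproteinases (TIMPs) and the membrane-bound inhibitor RECK were examined in mouse chondrocytes by taking the rows of the gene symbols Timp1, Timp2, Timp3, Timp4 and Reck, 5 of the 55414 gene identifiers in the count files. The rule named the genes by symbol and set no threshold on a measured value, though earlier results of these data were known when it was written, and all 5 passed the filter on low counts in every comparison. The samples were 16 RNA-Seq libraries, 4 in each of 4 groups, from epiphyseal chondrocyte-enriched cells that the labels give as pooled from males and females. The cells came from C57BL/6 pups of 3 to 4 days of age. The mutant groups carried 1 copy of the Notch2tm1.1Ecan allele (Notch2 mutant in the labels) in every cell type, a stop codon ahead of the PEST domain that leaves a stable NOTCH2 protein and a gain of function, and the wild type groups were control littermates. For 6 h each genotype received either vehicle (PBS) or TNFα (50 ng/ml). The labels give serum removal for the TNFα groups only, while the study's own account gives it for vehicle as well. If the labels hold, serum removal and TNFα cannot be told apart in the comparisons of TNFα with vehicle.

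TIMPs are secreted proteins that bind the active site of matrix metalloproteinases and so set how fast cartilage collagen and other matrix proteins are cleaved. TIMP3 differs from the others in that it stays bound to the extracellular matrix and also inhibits ADAM17, the sheddase that releases TNFα from the cell surface, and the aggrecanases ADAMTS4 and ADAMTS5. RECK is anchored to the cell membrane by a lipid tail, inhibits MMP2, MMP9 and MMP14, and also serves as a co-receptor for the WNT7 ligands.

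In GRCm39 (GENCODE M39), Timp1 (ENSMUSG00000001131, chrX:20736316-20740976, plus strand) lies inside Syn1, Timp3 (ENSMUSG00000020044, chr10:86136236-86185371, plus strand) inside Syn3, and Timp4 (ENSMUSG00000030317, chr6:115187773-115229336, minus strand) inside Syn2, in each case on the strand opposite to the synapsin gene. Timp2 (ENSMUSG00000017466) is at chr11:118191887-118246566 on the minus strand and holds Cep295nl on the same strand. Reck (ENSMUSG00000028476) is at chr4:43875514-43944806 on the plus strand. Exons of Syn3 shared 1734 bases, or 21.3%, of the annotated Timp3 exon length, and exons of Syn2 shared 1142 bases, or 14.7%, of that of Timp4. Syn3 held 995 counts over the 16 libraries, against at least 5352 counts of Timp3 in each library, whereas Syn2 was detected at levels like those of Timp4, as given beside Timp4 below. The libraries were stranded, but the strand setting of the counting is not given in the sources used here, so reads of opposite genes may share these bases.

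The RefSeq promoters (GRCm38.p6) of Timp3, Reck and Timp4 are shown because these 3 genes fell with TNFα in both genotypes, as described below. Each run is the 250 bases before the gene's start on its own strand, 5′ to 3′, and capitals mark CG dinucleotides. They are at chr10:86300162-86300411 (plus strand), chr4:43875280-43875529 (plus strand) and chr6:115252206-115252455 (minus strand).
Timp3: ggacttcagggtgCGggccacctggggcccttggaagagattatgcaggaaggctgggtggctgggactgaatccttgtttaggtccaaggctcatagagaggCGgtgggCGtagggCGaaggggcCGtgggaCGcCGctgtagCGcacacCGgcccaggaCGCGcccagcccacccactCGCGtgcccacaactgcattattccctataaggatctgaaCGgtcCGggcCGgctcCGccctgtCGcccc
Reck: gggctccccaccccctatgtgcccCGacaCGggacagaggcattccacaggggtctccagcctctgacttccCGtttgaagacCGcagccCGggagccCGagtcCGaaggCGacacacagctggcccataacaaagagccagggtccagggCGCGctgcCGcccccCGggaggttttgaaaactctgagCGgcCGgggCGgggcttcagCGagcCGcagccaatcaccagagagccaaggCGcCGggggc
Timp4: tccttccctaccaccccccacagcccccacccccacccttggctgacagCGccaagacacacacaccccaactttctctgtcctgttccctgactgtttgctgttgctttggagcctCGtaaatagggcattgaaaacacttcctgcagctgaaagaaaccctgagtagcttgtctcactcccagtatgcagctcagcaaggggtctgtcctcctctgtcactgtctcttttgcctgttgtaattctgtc
The Timp3 and Reck runs held 18 and 19 CG dinucleotides and were 65.6 and 68.4% G or C, whereas the Timp4 run held 2 and was 53.6% G or C. The median over 32851 RefSeq promoters of mouse was 6 CG dinucleotides and 52.4% G or C. Timp2 held 21 and Timp1 held 6 CG dinucleotides. The genes that fell therefore included promoters with more and with fewer CG dinucleotides than the median. In the 300-base windows that run from 250 bases before to 50 bases after the start, neither strand of any of the 5 genes matched the AP-1 motif TGANTCA, which 7.81% of all promoter windows held, or the NF-kB motif, which 8.46% held. The RBPJ motif TGGGAA, which 25.6% of all windows held, matched only in Timp1, on the gene's own strand from 158 to 153 bases before the start, and overlapped no other motif searched. That match is in capitals in the 30 bases at chrX:20869996-20870025 (GRCm38.p6, plus strand).
Timp1: gtttggggaataTGGGAAacctgagaggca
A match describes letters in this window and is not a measured binding site.

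The libraries held 3439726 to 44237300 counts on genes, with a median of 17062419. The shallowest library was Notch2 mutant with TNFα replicate 4, and the deepest Notch2 mutant with vehicle replicate 4. Heyl, a Notch target, was higher in mutant cells (log2 fold change 3.04 with vehicle and 2.46 with TNFα), with only 1 to 10 counts in each wild type library. Hes1, another Notch target, was called higher with vehicle (0.61). With TNFα it was called higher only when wild type replicate 4 was left out. Notch2 itself, whose allele changes the protein, was at 0.23 (not called) and 0.53. Icam1, an adhesion molecule induced by TNFα, ran from 1761 to 2779.6 CPM with TNFα. CPM is a count scaled to library size, with library sizes corrected by the trimmed mean of M values (TMM). Wild type with vehicle replicate 4 stood apart, with 447 CPM of Icam1 against 34.6 to 41.0 in the other 3 libraries of its group. On the first principal component it lay at -16.5, against -46.7 to -45.6 in those libraries. Wild type with TNFα replicate 4 stood apart on the same component (32.5 against 43.7 to 46.7). Where leaving these replicate 4 libraries out changed a call of a gene whose fold change is given here, the value without them (for Hes1 only the call) is given. The same was done where it moved such a fold by over 1.5 times. For Icam1 only levels are given. The chondrocyte markers were present in all libraries, 31210 to 53628 CPM over 11 genes with vehicle, led by Col2a1, and Cd3e and Cd3g of T cells were at 0 in every library.

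Per kilobase of exon, Timp3 was the most abundant of the 5 transcripts with vehicle and Timp2 with TNFα. On this scale Timp3 made up 57.7% ± 0.792 (SD, n = 4) of the summed level of the 5 genes in wild type cells with vehicle, Timp2 28.5% ± 0.382, Timp1 11.8% ± 0.455, Reck 2.09% ± 0.0716 and Timp4 0.00402% ± 0.000476. With TNFα the share of Timp3 was 28.9% ± 5.09 in wild type and 21.1% ± 0.454 in mutant cells (SD, n = 4), and that of Timp2 was 45.7% ± 2.71 and 49.8% ± 1.92. The share of Timp1, the TIMP best known as induced by cytokines, was 23.3% ± 2.61 and 27.1% ± 2.33 with TNFα. The summed level was 2008 ± 92.4 CPM per kb in wild type with vehicle, 1543 ± 17.2 in mutant with vehicle, 1114 ± 77.1 in wild type with TNFα and 917 ± 23.7 in mutant with TNFα (SD, n = 4). The 4 groups did not overlap in that sum. These shares depend on the annotated length used and are a description, with no test.

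**Figure D1:**
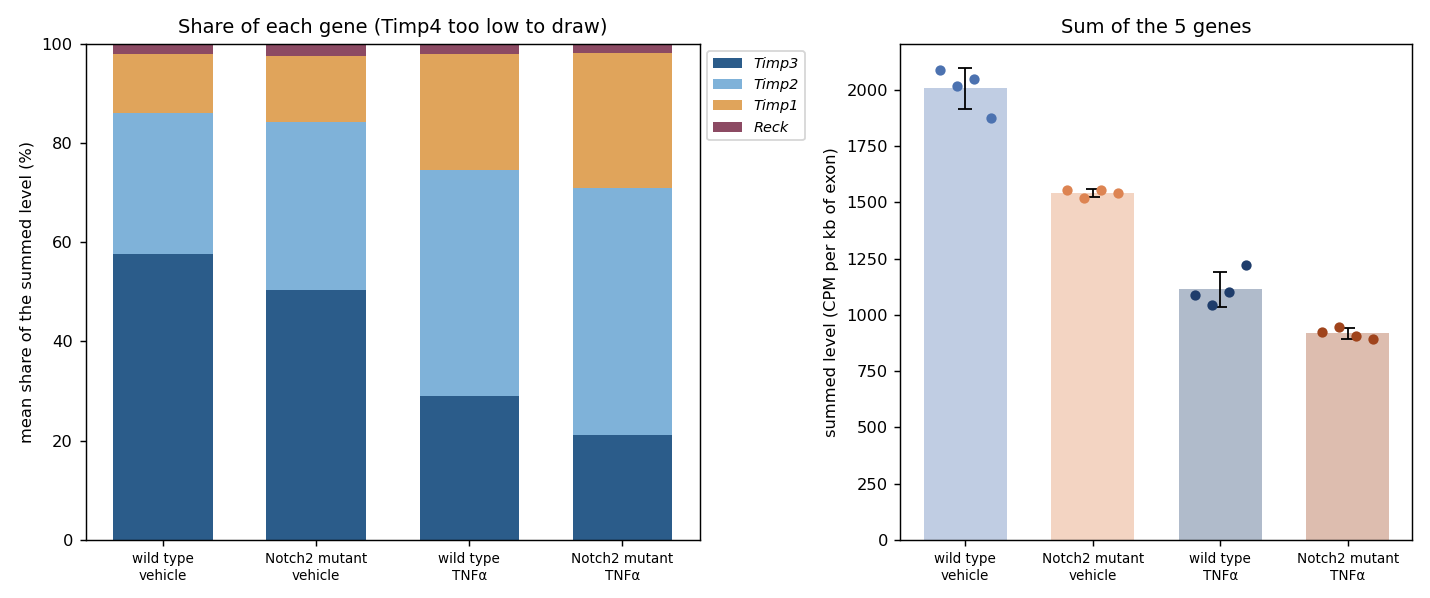
Left, mean share of each gene in the summed level of the 5 genes, in percent of CPM per kb of exon, for the 4 groups (Timp4, at most 0.0104%, is not drawn). Right, the sum in CPM per kb, with 1 point per library and the bar and whisker at the mean ± SD (n = 4); the sum runs from 2008 in wild type with vehicle down to 917 in Notch2 mutant with TNFα, and the Timp3 share from 57.7 to 21.1%.

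The first question was how exposure to TNFα moved the inhibitors in each genotype. In wild type cells Timp3, Timp4, Reck and Timp2 fell and Timp1 rose, so that all 5 genes passed the test, 1 higher and 4 lower. Over the 19338 genes tested, 23.3% were called higher and 20.9% lower at an adjusted p under 0.05. In mutant cells 1 gene (Timp1) was called higher and 3 lower (Timp3, Timp4 and Reck), against 22.6% higher and 21.9% lower over 19633 genes. The median log2 fold change over the 5 genes was -0.84 in wild type and -1.03 in mutant cells, against 0.04 and 0.03 over all genes tested. The libraries of the 2 treatments did not overlap for 4 of 5 genes in wild type cells, against 42.2% of all genes tested, and for 5 of 5 in mutant cells, against 40.9%.

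Timp3, the matrix-bound TIMP, had the largest change in CPM of the 5 genes. It stood at 9893, 9497, 9707 and 8633 CPM in wild type with vehicle and at 2403, 2273, 2273 and 3636 CPM in wild type with TNFα. In mutant cells it stood at 6072, 6376, 6462 and 6464 CPM with vehicle and at 1595, 1663, 1568 and 1490 CPM with TNFα (replicates 1 to 4 each). No library with TNFα reached any library with vehicle, and the highest of the TNFα libraries was wild type replicate 4. Timp3 fell 3.46-fold with TNFα in wild type cells (log2 fold change -1.79 ± 0.18 SE, adjusted p = 0.000234) and 3.88-fold in mutant cells (-1.96 ± 0.06 SE, adjusted p = 2.02e-20). Only 1.52% of the genes tested in wild type cells and 2.33% of those in mutant cells had a lower log2 fold change. Without both replicate 4 libraries of wild type cells the group means were 9699 ± 198 and 2316 ± 74.8 CPM (SD, n = 3), and the log2 fold change was -2.03 (adjusted p = 3.89e-28). Syn3, in which Timp3 lies, also fell with TNFα, from 4.62 to 2.27 CPM in wild type and from 5.06 to 0.939 CPM in mutant cells, and its part in the Timp3 counts was not tested, though its level was far below that of Timp3.

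Reck, the membrane-bound inhibitor, fell as well. Its levels in wild type were 327, 339.7, 339.7 and 298 CPM with vehicle and 174, 164, 169.9 and 199 CPM with TNFα. In mutant cells they were 285, 283, 287 and 289 CPM with vehicle and 131, 141, 135 and 132 CPM with TNFα. All 8 libraries with TNFα were below all 8 with vehicle. The fall was 1.79-fold in wild type (log2 fold change -0.84 ± 0.06 SE, adjusted p = 3.35e-10) and 2.04-fold in mutant cells (-1.03 ± 0.06 SE, adjusted p = 2.46e-14).

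Timp4, the TIMP best known from heart and fat, was barely detected. It had 10, 8, 10 and 11 counts in wild type with vehicle and 0, 1, 3 and 3 with TNFα, and 13, 34, 19 and 54 counts in mutant with vehicle and 1, 3, 2 and 0 with TNFα. Every library with TNFα was at or below the 3 counts taken as the floor of detection. In mutant with TNFα replicate 4, the shallowest library, 3 counts would be 0.872 CPM before the TMM correction. Its 0 counts therefore say little about how low its level was. Over summed counts and depths the level with vehicle was 5.62 times that with TNFα in wild type cells (95% exact interval 2.49 to 14.9, 39 against 7 counts) and 10.7 times in mutant cells (4.77 to 29.7, 120 against 6 counts), where the intervals cover counting error only. The fitted log2 fold changes were -2.48 ± 0.61 SE (adjusted p = 0.0018) and -3.37 ± 0.50 SE (adjusted p = 2.96e-06). Syn2, on the opposite strand, stood at 0.153 to 0.446 CPM in wild type and 0.576 to 0.850 CPM in mutant cells with vehicle, and at 0.229 to 0.326 and 0 to 0.284 CPM with TNFα. It fell with TNFα in mutant cells (-2.06, adjusted p = 0.00536), while in wild type cells it was at 0.10 (adjusted p = 0.919) and between genotypes with vehicle at 1.27 (adjusted p = 0.0713), and its part in the Timp4 counts was not tested.

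Timp1, the inducible TIMP, moved the other way and by little. It stood at 477, 456, 461 and 458 CPM in wild type with vehicle and at 532, 481, 541 and 468 CPM with TNFα. In mutant cells it stood at 440.1, 385, 406 and 389.8 CPM with vehicle and at 496, 479, 443 and 529 CPM with TNFα. The treatments overlapped in wild type cells (replicate 4 with TNFα lay below replicate 1 with vehicle) and not in mutant cells. The rise was 1.13-fold in wild type (log2 fold change 0.17 ± 0.05 SE, adjusted p = 0.00595) and 1.24-fold in mutant cells (0.31 ± 0.06 SE, adjusted p = 0.000115).

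Timp2, which besides inhibiting MMP14 brings pro-MMP2 to it for activation, had the smallest fold change with TNFα of the 5. It stood at 2622, 2565, 2581 and 2427 CPM in wild type with vehicle and at 2220.4, 2223, 2334 and 2287 CPM with TNFα. In mutant cells it stood at 2450.9, 2244, 2309 and 2288 CPM with vehicle and at 2049, 2140.5, 2093 and 1883 CPM with TNFα. The treatments did not overlap in either genotype, but the gaps were small. The fall was 1.09-fold in wild type (log2 fold change -0.13 ± 0.03 SE, adjusted p = 0.00212), and in mutant cells the log2 fold change of -0.14 ± 0.06 SE did not pass the test (adjusted p = 0.0614).

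**Figure D2:**
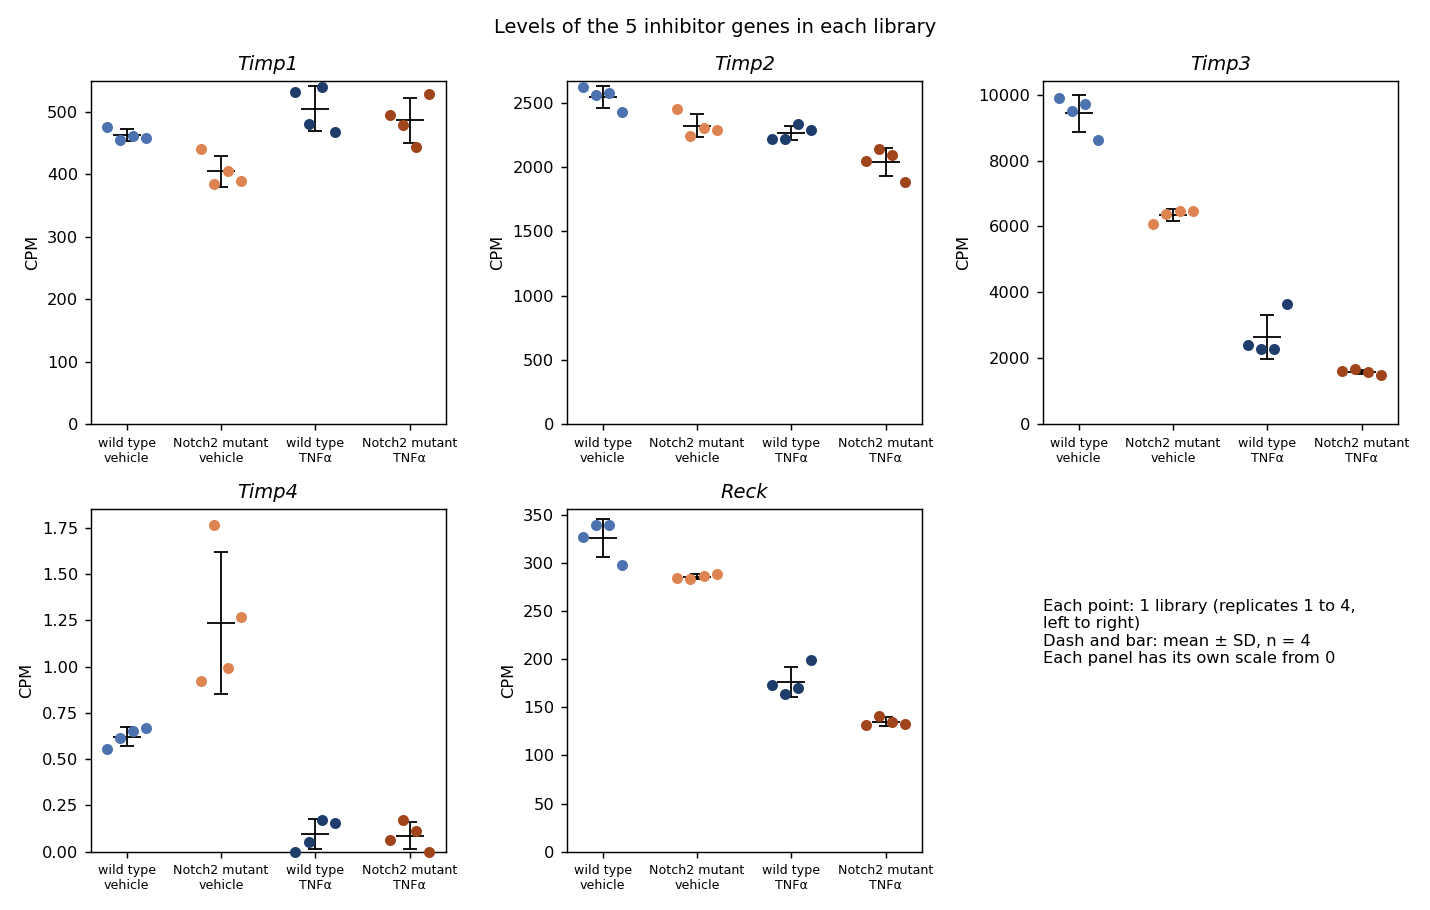
CPM of each of the 5 genes in the 16 libraries, 1 point per library, with the dash and bar at the mean ± SD (n = 4) and a separate linear scale from 0 in each panel. Timp3 and Reck step down from wild type with vehicle to Notch2 mutant with TNFα, and Timp1 and Timp2 stay within narrow ranges. Timp4 is at most 0.172 CPM, or 3 counts, in every library with TNFα, at or under the floor of detection.

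The second question was how the inhibitors differed between Notch2 mutant and wild type cells. With vehicle Timp3, Timp1 and Reck were lower and Timp4 higher in mutant cells, 1 gene called higher and 3 lower, against 6.19% higher and 4.35% lower of 19432 genes tested. With TNFα, 2 genes, Timp3 and Reck, were lower and 0 were higher, against 4.31% lower and 5.63% higher of 19227 genes. Mutant and wild type libraries were fully separated for 4 of 5 genes with vehicle, against 16.1% of all genes tested, and for 3 of 5 with TNFα (Timp2, Timp3 and Reck), against 15.3%. The median log2 fold change of the 5 genes was -0.19 with vehicle and -0.13 with TNFα, against -0.0020 and -0.01 over all genes.

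With vehicle, the mean of Timp3 was 9432 ± 557 CPM in wild type and 6343 ± 186 CPM in mutant cells (SD, n = 4), and the highest mutant library, at 6464 CPM, lay below the lowest wild type library, at 8633 CPM. The difference was 1.49-fold (log2 fold change -0.57 ± 0.05 SE, adjusted p = 2.85e-08). With TNFα the means were 2646 ± 663 and 1579 ± 71.8 CPM (SD, n = 4), again with no overlap. The difference was 1.66-fold (log2 fold change -0.73 ± 0.16 SE, adjusted p = 0.0329). This call was lost when mutant replicate 1, 3 or 4 was left out (adjusted p = 0.0864, 0.076 and 0.115), while without wild type replicate 4 with TNFα it was -0.55 with an adjusted p of 4.28e-08.

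Reck was 1.14-fold lower in mutant cells with vehicle (log2 fold change -0.19 ± 0.05 SE, adjusted p = 0.0138) and 1.29-fold lower with TNFα (-0.37 ± 0.07 SE, adjusted p = 0.000216). In both treatments its mutant libraries lay below all wild type libraries. The call with vehicle was lost without wild type replicate 2 or 3 (adjusted p = 0.0756 and 0.0669). Timp1 was 1.14-fold lower in mutant cells with vehicle (-0.19 ± 0.05 SE, adjusted p = 0.0116), a call lost without wild type replicate 1 (adjusted p = 0.0562) or mutant replicate 2 (adjusted p = 0.0583). With TNFα the log2 fold change of Timp1 was -0.04 with a 95% interval of -0.18 to 0.09 (adjusted p = 0.788), and the genotypes overlapped.

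Timp4 stood at 0.622 ± 0.0494 CPM in wild type and 1.24 ± 0.382 CPM in mutant cells with vehicle (SD, n = 4), with no overlap between 4 libraries of 8 to 11 counts and 4 of 13 to 54 counts. The log2 fold change was 1.00 ± 0.31 SE (adjusted p = 0.0387), and this call rested on few counts and was lost in 6 of the 8 fits that left out 1 library, namely each wild type library and mutant replicates 2 and 4 (adjusted p up to 0.168), although the fold stayed positive. With TNFα both genotypes were at or under the floor and no fold is given. Timp2 did not pass the test between genotypes, with log2 fold changes of -0.14 with vehicle (95% interval -0.23 to -0.04, adjusted p = 0.0742) and -0.13 with TNFα (95% interval -0.26 to -0.01, adjusted p = 0.187). With vehicle Timp2 did pass without wild type replicate 4 (adjusted p = 0.00718) or without mutant replicate 1 (adjusted p = 0.00251).

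**Figure D3:**
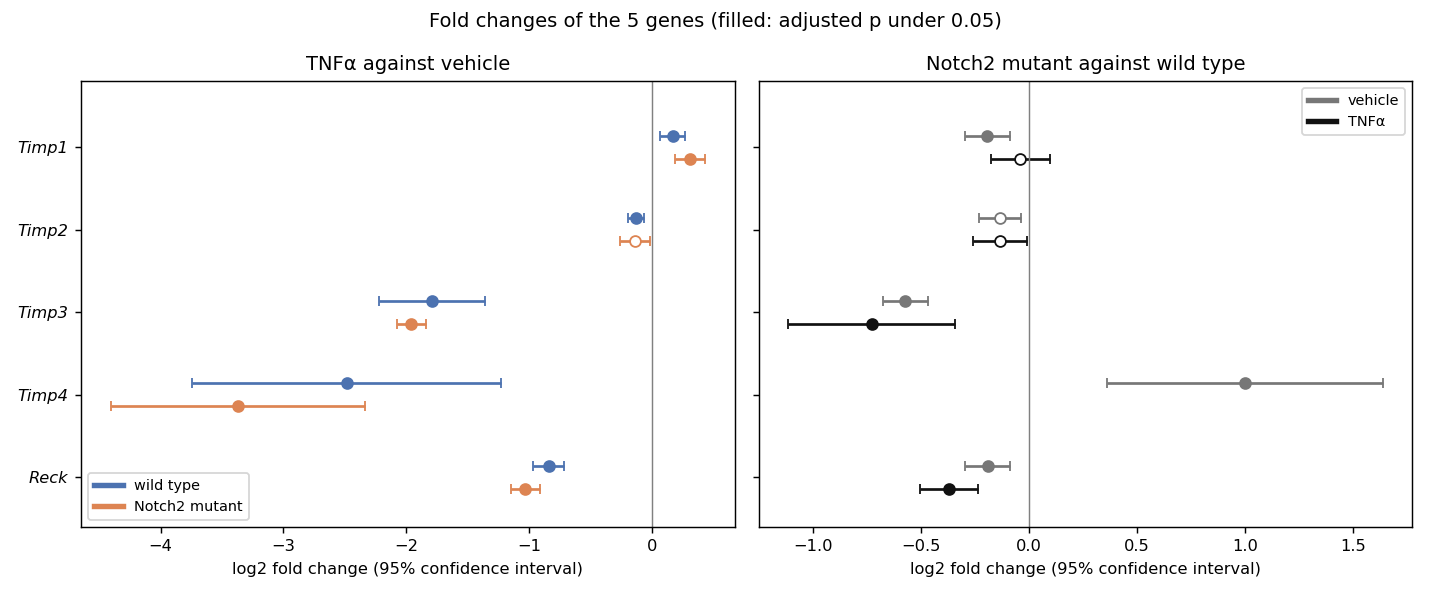
Log2 fold changes of the 5 genes with 95% confidence intervals, TNFα against vehicle in each genotype (left) and Notch2 mutant against wild type with each treatment (right, without Timp4 with TNFα, which was at or under the floor). Filled points passed an adjusted p under 0.05. With TNFα, Timp3 lies at -1.79 and -1.96 and Reck at -0.84 and -1.03, and between genotypes the Timp3 points lie at -0.57 and -0.73.

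The third question was whether the response to TNFα differed between genotypes. The interaction term, fitted on all 16 libraries, passed the test for 0 of 5 genes, against 0.474% of 21321 genes tested. By edgeR's quasi-likelihood test 1 gene, Reck, was under 0.05 before adjustment only (log2 difference -0.18 ± 0.09 SE, adjusted p = 0.546). DESeq2 also called 0 of the 5 genes. The difference was 0.15 for Timp1 (95% interval -0.02 to 0.31) and -0.0048 for Timp2 (-0.15 to 0.14). For Timp3 it was -0.16 (95% interval -0.56 to 0.24), and it became 0.08 without both replicate 4 libraries of wild type cells. The 2 comparisons of genotypes and the 2 of TNFα share their groups, so that their values for the same gene are not independent.

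The order of the 4 groups differed between genes. Timp3 and Reck had the same order, wild type with vehicle, mutant with vehicle, wild type with TNFα and mutant with TNFα from high to low, with no overlap between neighbours. For Timp2 the order was the same, but wild type with TNFα overlapped mutant with vehicle, and the vehicle groups overlapped. For Timp1 mutant with vehicle was lowest and did not overlap the next group, and the other 3 groups overlapped with their neighbours. For Timp4 the TNFα groups overlapped, and mutant with vehicle was highest.

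Across the 16 libraries the genes most like each inhibitor were found among 13427 other genes with a mean of at least 1 CPM, by Pearson's r of log2(CPM + 1), as a description without a test, since all libraries share the same 4 groups. For Timp3 they were Mest (r = 0.998), an imprinted gene of embryonic mesoderm, and Csgalnact1 (r = 0.998), an enzyme that starts chondroitin sulfate chains. For Reck they were again Mest (r = 0.997) and Cnksr3 (r = 0.996). For Timp2 they were Pitx1 (r = 0.961), a hindlimb transcription factor, and Scx (r = 0.959), the tendon transcription factor scleraxis. For Timp1 the values were lower, with Serpina3n (r = 0.930), a serine proteinase inhibitor of the acute phase, and Tex264 (r = 0.908). Mest ran from 469 to 1640 CPM.

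Markers of cell types moved with the same groups. Over 11 chondrocyte genes the summed level ran from 50336 to 53628 CPM in wild type with vehicle, 31210 to 36816 in mutant with vehicle, 34865 to 41444 in wild type with TNFα and 19571 to 21557 in mutant with TNFα, and 11 of 11 were called lower in mutant cells with either treatment, beside the lower Timp3 and Reck. Of the 8 macrophage genes 7 were called higher in mutant cells with either treatment, and their sum ran from 59.6 to 66.8 CPM in wild type and from 115 to 135 CPM in mutant cells with vehicle, and from 73.2 to 87.1 and from 150.2 to 173 CPM with TNFα. The 4 smooth muscle genes ran from 1797 to 2051 CPM in wild type and from 3576 to 4235 CPM in mutant cells with vehicle, and from 972 to 1170.0 and 1807 to 2174 CPM with TNFα. The 6 fibroblast genes, led by collagens, ran from 30293 to 41166 CPM over all groups. Of 5 endothelial genes 3 were called higher in mutant cells with vehicle and 2 with TNFα, of 4 skeletal muscle genes 2 and 1, and of 4 osteoblast genes 1 was lower with vehicle, all 3 sums being at most 21.6 CPM. With TNFα, 10 of the 11 chondrocyte genes and 4 of the 4 smooth muscle genes were called lower in each genotype, beside the lower Timp3 and Reck, as were 2 of the 4 osteoblast genes, and 3 of the 8 macrophage genes in wild type and 5 in mutant cells were called higher. Of the 6 fibroblast genes 4 were higher with TNFα in wild type and 3 in mutant cells, and between genotypes 3 were higher and 1 lower with vehicle and 4 higher and 1 lower with TNFα. Without wild type replicate 4 these counts moved by 1 gene at most, to 10 of 11 chondrocyte genes lower in mutant cells with vehicle, 2 of 8 macrophage genes higher with TNFα in wild type cells, and in mutant cells with TNFα 1 of 5 endothelial, 3 of 6 fibroblast and 4 of 4 smooth muscle genes higher. Of the T and mast cell genes only Kit was tested, and it was not called. In bulk RNA fewer cells of a type and less RNA per cell cannot be told apart, and the part of these shifts in the results for the inhibitors was not tested.

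Of 23 matrix metalloproteinase genes 17 were tested in each comparison. With TNFα 9 were called higher and 1 lower in wild type cells, and 8 higher and 2 lower in mutant cells. The median log2 fold change was 0.36 in wild type and 0.40 in mutant cells. The largest rises were those of Mmp9, a gelatinase (log2 fold change 4.36 in wild type and 4.73 in mutant cells), Mmp3, stromelysin (3.72 and 4.01), and Mmp13, the main collagenase of cartilage (2.39 and 3.19). The wild type values were made smaller by vehicle replicate 4, in which Mmp9 was at 6.80 CPM against 0.306 to 0.613 CPM in the other 3 libraries. In the same library Mmp3 was at 63.9 against 12.9 to 15.0 CPM and Mmp13 at 162 against 84.6 to 96.4 CPM. Without both replicate 4 libraries of wild type cells the log2 fold change was 6.45 for Mmp9 and 4.76 for Mmp3, above the values in mutant cells. Mmp19 fell in both genotypes (-0.40 and -0.25) and Mmp17, a membrane-anchored proteinase, fell in mutant cells (-0.52). Between genotypes 6 were higher and 1 lower with vehicle, and 7 were higher and 3 lower with TNFα. Mmp17 (1.68 and 1.03), Mmp12 of macrophages (0.81 and 0.74) and Mmp23 (0.53 and 0.51) were higher and Mmp16 (-0.44 and -0.42) was lower with both treatments. Mmp3 (-0.32) and Mmp13 (-0.21) were lower in mutant cells with TNFα. Without wild type replicate 4, Mmp9 (1.64, adjusted p = 0.00165) and Mmp3 (0.31, adjusted p = 0.0321) were called higher and Mmp13 lower (-0.78, adjusted p = 0.02) in mutant cells with vehicle. The interaction term passed for 0 of 18 tested, and without both replicate 4 libraries for 2, Mmp9 (-1.72, adjusted p = 0.000323) and Mmp3 (-0.74, adjusted p = 1.38e-05). Mmp23 rose with TNFα in wild type cells (0.18), a call lost without both libraries (adjusted p = 0.15).

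Set against the inhibitors per kilobase of exon, the summed level of Mmp2, Mmp3, Mmp13 and Mmp14 came to 13.7, 14.1, 14.2 and 18.6% of the summed Timp1 to Timp4 in the 4 wild type libraries with vehicle, and to 19.7, 18.1, 17.9 and 18.8% in mutant cells. With TNFα it came to 64.8, 69.1, 66.3 and 51.3% in wild type and to 75.0, 71.6, 72.5 and 73.8% in mutant cells. Replicate 4 of wild type cells was the highest of its group with vehicle and the lowest with TNFα. These 4 of the 17 tested metalloproteinases were picked with earlier results known, and Mmp3 and Mmp13 were among the largest rises with TNFα. The mean of Mmp2 relative to the TIMPs was 7.27% ± 0.478 in wild type and 9.22% ± 0.492 in mutant cells with vehicle, and 16.3% ± 1.12 and 22.7% ± 0.677 with TNFα (SD, n = 4). That of Mmp3 was 0.766% ± 0.778 and 0.633% ± 0.0278 with vehicle, and 17.4% ± 3.39 and 16.5% ± 1.15 with TNFα. In wild type with vehicle Mmp3 stood at 0.358 to 0.407% in 3 libraries and at 1.93% in replicate 4. These ratios also move with the inhibitors, so a higher ratio is not by itself a higher proteinase level. The summed level of the 5 inhibitors, Reck included, was 2008 CPM per kb in wild type with vehicle and 1114 with TNFα. In mutant cells it was 1543 with vehicle and 917 with TNFα. The ratios are of transcripts, not of proteins, and were not tested.

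**Figure D4:**
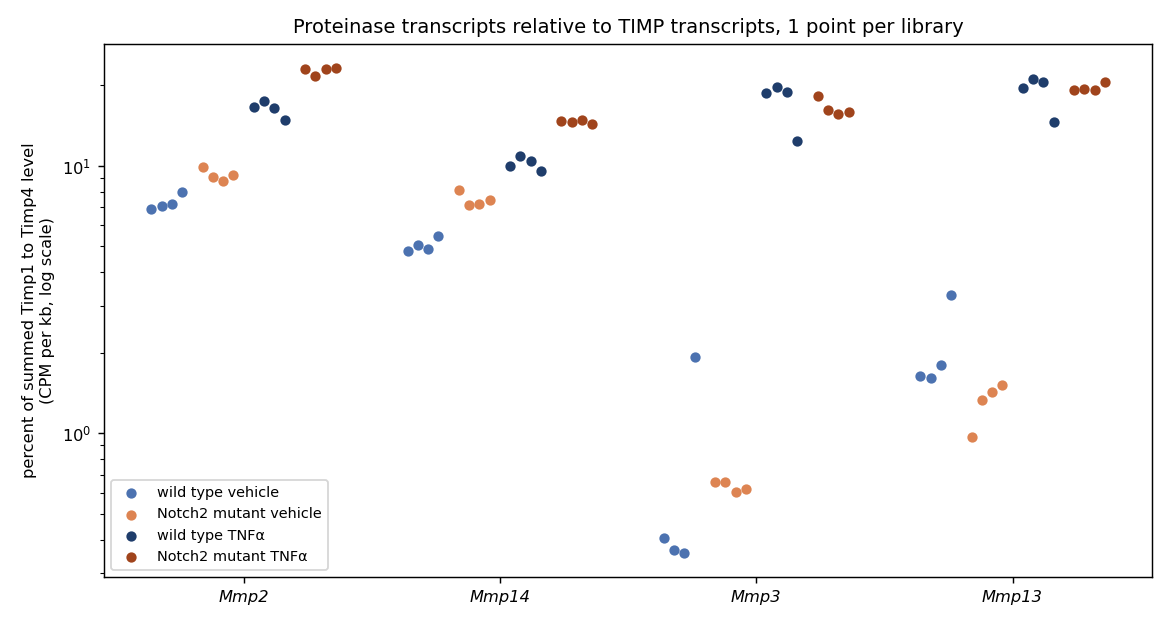
Level of Mmp2, Mmp14, Mmp3 and Mmp13 in percent of the summed level of Timp1 to Timp4 (CPM per kb of exon, log scale), 1 point per library and 1 colour per group. For each proteinase all libraries with TNFα lie above all libraries with vehicle, and replicate 4 of wild type lies highest with vehicle for Mmp3 (1.93%) and Mmp13 (3.29%) and lowest with TNFα for each of the 4.

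The ADAM sheddases and ADAMTS proteinases, some of which are targets of TIMP3, moved in both directions. Of 8 ADAM genes 3 were called higher and 3 lower with TNFα in each genotype. Adam17, the TNFα sheddase, rose from 89.8 to 262 CPM in wild type (log2 fold change 1.58) and from 81.6 to 249 CPM in mutant cells (1.65). Adam19 (-1.33 and -1.53), Adam12 (-1.05 and -0.83) and Adam9 (-0.47 and -0.38) fell. Between genotypes Adam12 (0.64 with vehicle and 0.87 with TNFα) and Adam19 (0.73 and 0.54) were higher in mutant cells, Adam8 was higher with vehicle (0.69), and none of the 8 was lower. Without wild type replicate 4, Adam9 was also higher with TNFα (0.20, adjusted p = 0.0343). Adam10, the other broad sheddase, was not called in any of the 4 comparisons, with a mean of 118 to 123 CPM in all groups.

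Of 18 ADAMTS genes 8 were called higher and 5 lower with TNFα in wild type cells, and 9 higher and 5 lower in mutant cells. The aggrecanase Adamts4 rose (log2 fold change 1.42 and 1.28), whereas Adamts5, the other main aggrecanase, fell (-0.60 and -0.62). This pair was picked as targets of TIMP3 with the values already known. The largest rises were those of Adamts8 (3.30 and 4.40), Adamts7 (3.11 and 3.60) and Adamts15 (2.44 and 3.73), where the wild type values without both replicate 4 libraries were 4.25 for Adamts8 and 3.78 for Adamts7, and the largest falls those of Adamts3 (-2.33 and -2.66), Adamts9 (from 155 to 37.3 CPM and from 157 to 32.3 CPM) and Adamts1 (-1.33 and -1.46). Between genotypes 4 of 17 were higher with vehicle and 8 of 18 with TNFα, and 0 were lower. Those higher with vehicle included Adamts12 (1.02), Adamts4 (0.52) and Adamts2 (0.28). Without wild type replicate 4 the counts were 7 and 9, with Adamts15 (1.28), Adamts7 (0.48) and Adamts6 (0.47) added with vehicle and Adamts1 (0.24) with TNFα. Adamts15 was higher in mutant cells with TNFα (57.7 against 13.7 CPM, log2 fold change 2.07, adjusted p = 3.66e-16). The interaction term passed for 1 of the 18 genes, Adamts14 (0.44, adjusted p = 0.0236), and for 1 of the 8 ADAM genes, Adam8 (-0.61, adjusted p = 0.034). Without both replicate 4 libraries Adamts6 passed as well (-0.78, adjusted p = 0.0485).

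Other inhibitors of proteolysis were also measured. A2m, a broad proteinase trap, rose with TNFα (1.21 and 1.17) and was lower in mutant cells (-0.72 with vehicle and -0.76 with TNFα). Tfpi2 rose (1.98 and 1.67, and 2.66 in wild type without both replicate 4 libraries), and Serpine2, protease nexin 1, was lower in mutant cells (-0.37 and -0.42). Of 11 genes tested in the list of other inhibitors, activators and clearance, 4 were higher and 6 lower with TNFα in wild type cells, and 5 were higher and 5 lower in mutant cells. Among the plasminogen activators, which act upstream of matrix metalloproteinases, Plat rose (0.92 and 1.52) and Plau fell (-0.50 and -0.90). The interaction passed for these 2 genes of the list, Plat at 0.61 (adjusted p = 0.00263) and Plau at -0.40 (adjusted p = 0.0305), the latter lost without both replicate 4 libraries (adjusted p = 0.106).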

How the data were processed

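The authors deposited 1 file of whole-number counts per library, made with htseq-count from paired reads of stranded mRNA libraries and not normalized. The study's methods name GRCm39 and the submitters' processing notes name GRCm38 with HISAT2 2.1.0 and SAMtools 1.9, and which was used was not settled here. The strand setting of the counting is not given in the sources used here. Of 55414 identifiers 665 were not in GENCODE M39, with 0.018% of the counts. Entries that name no gene (8.81 to 12.1% of fragments) were left out.

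TMM-scaled counts were tested with edgeR 4.0.16 (quasi-likelihood, robust) in R 4.3.3, after removing genes under 10 counts summed over the compared libraries. Each comparison used its own 8 libraries, and the interaction all 16. Adjusted p are Benjamini-Hochberg over all genes tested, called under 0.05. DESeq2 1.42.0, RLE scaling, other filters and thresholds, a replicate block, 1 joint fit, and leaving out each library or wild type replicate 4 were alternatives. The pipeline was tested on simulated counts. Levels per kb used merged GENCODE exons. Tables and figures used Python 3.11.15, pandas 2.3.3, numpy 2.4.6, scipy 1.17.1 and matplotlib 3.10.9. Libraries are labelled biological replicates, but whether they came from separate litters is not given, and p values measure the spread between them. Replicates of a group differed by more than sampling noise in all 24 pairs (chi-square per degree of freedom 2.08 to 14.6).

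The 5 genes and the gene lists were chosen with earlier results of these data known. From each list, up to 3 called genes with the largest rise and 3 with the largest fall in each comparison were named, with a mean of at least 1 CPM in 1 group, besides the inhibitors, overlapping and check genes, and the 2 genes most like each inhibitor. Any further gene was picked with its values known. The promoters, all 5 matched by symbol, are RefSeq's. Proteins were not analysed here. One gene of the list of other inhibitors is counted but its values are not reported here.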

Additional observations from a re-analysis of the deposited data

Results flagged for a closer look

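Among 20 sets of 4 libraries (5 genes in 4 groups) 1 library stood apart from the other 3 of its group, where chance alone gives about 1 in 20. Timp3 in wild type with TNFα replicate 4 was at 3636 CPM, against 2273 to 2403 CPM in replicates 1 to 3, and the gap to the nearest was 0.905 of the group's range, above Dixon's 95% critical value for 4 samples. The same library was highest of its group for Reck (199 against 164 to 174 CPM) and lay lower on the first principal component (32.5 against 43.7 to 46.7). Without it the fall of Timp3 with TNFα in wild type cells was -1.99 on the log2 scale (adjusted p = 1.79e-08) and the difference between genotypes with TNFα was -0.55 (adjusted p = 4.28e-08), edgeR's quasi-likelihood test in both. Why this library stood apart was not tested.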

How the results depend on the processing

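Requiring a log2 fold change of at least 1 left 2279 genes (2 of the 5 inhibitors) for TNFα in wild type, 2720 in mutant cells, 244 (0 inhibitors) and 272 (0 inhibitors) between genotypes with vehicle and with TNFα, and 10 for the interaction. The interaction called 206 genes with DESeq2, 266 with every gene of at least 1 count, and 51 to 156 without 1 library each (fewest without mutant with TNFα replicate 3, most without mutant with vehicle replicate 1, and 66 without its replicate 2), against 101. Inhibitors called between genotypes ran from 2 to 5 with vehicle and from 1 to 2 with TNFα without 1 library each (fewest without wild type replicate 1, 2 or 3 or mutant replicate 2 with vehicle, and without mutant replicate 1, 3 or 4 with TNFα). The interaction of Timp2 changed sign under DESeq2 (0.0089), RLE scaling (0.0077), filterByExpr (0.0083) and without both wild type replicate 4 libraries (0.028), with a range of -0.032 to 0.042 without 1 library each, and that of Timp3 ran from -0.23 to 0.033 and was 0.077 without both, none of them called.

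The changes of Timp3, Reck, Timp4 and Timp1 with TNFα kept their direction and call in both genotypes in every alternative that tested them except the fold cutoff (filterByExpr removed Timp4 in wild type cells, leaving 4 of the 5 genes called), which Timp1 did not reach in either genotype and Reck only in mutant cells. The Timp4 difference with vehicle was not called with DESeq2 (adjusted p = 0.0658), the joint fit (0.0747) or the replicate block (0.066). Timp2 with TNFα in mutant cells was called with DESeq2 (adjusted p = 0.0389), the joint fit (0.0232), every gene of at least 1 count (0.0477) and the replicate block (0.0459), and between genotypes with vehicle under DESeq2 (0.0209).

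Same-numbered libraries showed no clear shared deviation (r from -0.199 to 0.158, best with the own number in 2 of 16 pairs), so they were not paired in the main tests. Such correlations cannot show that same-numbered libraries were unrelated, and both wild type replicate 4 libraries stood apart from their groups. With the replicate block the calls were 8209 and 8772 for TNFα in wild type and mutant cells, 2072 and 1741 between genotypes with vehicle and with TNFα, and 74 for the interaction, and it changed no other call of the inhibitors.

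With the longest transcript as length, the share of Timp3 was 67.0, 60.3, 37.8 and 28.6% and that of Timp2 22.7, 27.7, 41.2 and 46.4% in wild type and mutant with vehicle and wild type and mutant with TNFα. Without TMM factors 5 of 20 group means moved by more than their SD. Depth limits Timp4, whose counts with TNFα were at most 3.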

Other observations

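Binding partners of the inhibitors were also measured. Cd63, the tetraspanin that binds TIMP1 at the cell surface, was called higher with TNFα in wild type cells (log2 fold change 0.19 in the edgeR fit, adjusted p = 0.00179), and in mutant cells it was 0.03 (adjusted p = 0.76). Itga3 and Itgb1, the integrin that binds TIMP2, fell with TNFα in both genotypes (-0.43 and -0.39 for Itga3, -0.21 and -0.31 for Itgb1), and Itga3 was lower in mutant cells with either treatment (-0.48 with vehicle and -0.43 with TNFα). Efemp1, a matrix protein that binds TIMP3, was lower in mutant cells (-0.49 with vehicle, adjusted p = 1.76e-06, and -0.26 with TNFα, adjusted p = 0.00996). Adgra2, the receptor that works with RECK in WNT7 signaling, was higher in mutant cells (0.47 and 0.52), where Reck was lower. Of its ligands, Wnt7b rose with TNFα in wild type cells from 0.473 to 1.78 CPM (1.94, adjusted p = 4.78e-05) and in mutant cells from 0.286 to 0.913 CPM (1.76, adjusted p = 0.00104), and it was lower in mutant than in wild type cells with TNFα (-0.94, adjusted p = 0.0429). Of the 7 genes of this list that were tested, 2 were higher and 3 lower with TNFα in wild type cells, 1 higher and 2 lower in mutant cells, and the interaction passed for 0.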
